A study of Homo sapiens with 24 samples.

Results

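The MYC family (MYC, MYCN and MYCL), the D cyclins (CCND1, CCND2 and CCND3) and 4 inhibitors of cyclin-dependent kinases (CDKN1A, CDKN1B, CDKN2A and CDKN2B) were followed in HepaRG cells. These 10 genes were found through the transcript each array probe is annotated with, among 20503 genes with a symbol on the arrays, and were read by 13 probes. All 10 passed the filter on dim probes and were tested. HepaRG is an established human line of bipotent liver progenitors, named in the labels as a hepatocellular carcinoma line. RNA from 8 conditions was hybridised in 1 colour to 24 arrays, 3 per condition. The conditions asked how the cells answer Wnt3a and which part of the answer needs β-catenin or is blocked by a Wnt-binding decoy.

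Untransfected cells were left untreated, or were given mouse recombinant Wnt3a (200 ng/ml), mouse FZD8_CRD (300 ng/ml) or both agents for 72 h. FZD8_CRD is the soluble, ligand-binding domain of a Frizzled receptor and captures Wnt proteins outside the cell. Other cells were electroporated in suspension with 80 pmol of a negative control siRNA (siCTRL) or of an siRNA against β-catenin (siCTNNB1), each without and with Wnt3a. All cells were kept in serum-free medium with albumin for the stimulation. Control siRNA arrays thus differ from untransfected arrays by electroporation and siRNA at once, and perhaps by detachment. The effects of these steps cannot be told apart. The study record describes the triplicates as independent cultures, and arrays of the same replicate number also share a slide.

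MYC proteins are transcription factors that promote cell growth and entry into the cell cycle. D cyclins activate CDK4 and CDK6, which phosphorylate RB and release E2F factors, and the CIP/KIP inhibitors (CDKN1A and CDKN1B) and INK4 inhibitors (CDKN2A and CDKN2B) hold cyclin-dependent kinases back. MYC and CCND1 are textbook targets of the Wnt pathway, in which β-catenin joins TCF/LEF factors on DNA, and in liver these genes are known for their part in regeneration and in tumours.

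Levels below are log2 of the processed signal over the 75th percentile of the array, with a floor at -6.13, and the log2 fold changes come from limma with p-values adjusted over 24648 genes. A gene is said to rise or fall where its adjusted p was under 0.05. The replicate number is also the slide, and each of the 3 slides held 1 array of every condition. Levels of different probes are not compared as amounts, and summed levels of marker lists are compared between arrays only.

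CTNNB1, the target of the siRNA, was at 3.28, 3.27 and 3.57 on the untreated arrays, at 3.40, 3.31 and 3.47 with Wnt3a, at 3.22, 3.38 and 4.11 with FZD8_CRD and at 3.54, 3.98 and 3.89 with both agents. It was at 3.35, 3.37 and 3.51 on the siCTRL arrays and at 0.26, 0.35 and 0.52 on the siCTNNB1 arrays. With Wnt3a it was at 3.39, 3.62 and 3.67 after the control siRNA and at 0.33, 0.52 and 0.77 after siCTNNB1. The 6 siCTNNB1 arrays lay far below the other 18, which ran from 3.22 to 4.11, so the siCTNNB1 label was followed on every array. CTNNB1 cannot tell control siRNA arrays (3.35 to 3.67) from untransfected ones, as their levels overlapped. CTNNB1 fell by 3.03 without Wnt3a (adjusted p = 1.17e-09) and by 3.02 with it (adjusted p = 7.76e-10), on 3 of 3 slides each time. A second CTNNB1 probe (A_33_P3421695) was between -2.77 and -2.51 on the siCTNNB1 arrays and between 0.64 and 1.34 on all others.

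The FZD8_CRD array of replicate 3 stood apart from its group. Its median absolute log2 difference over all genes tested averaged 0.27 from the other FZD8_CRD arrays and 0.16 from the 3 arrays given FZD8_CRD and Wnt3a. The other FZD8_CRD arrays stood 0.19 each from their own group, and 0.25 and 0.26 from those with both agents. Signals of the spiked-in RNA were also the highest on that array, 0.61 (log2) above the mean of all arrays. TCF7, a Wnt feedback target, was at -1.50 there, against -2.95 and -2.73 on the other FZD8_CRD arrays and -0.93 to -0.64 with both agents. RNF43, another such target, was at -0.24 there, close to -0.36 and -0.44 on the other FZD8_CRD arrays and below the 0.38 to 0.50 seen with both agents. The array was kept under its label. Without it FZD8_CRD alone called 7 of the 10 genes, beside 40.6% of all genes, and Wnt3a in the presence of FZD8_CRD called 6, beside 19.9%. Values without it are given below for those of the 10 called with FZD8_CRD alone. The Wnt3a array of replicate 2 was also closer to the siCTRL_Wnt3a arrays (0.19) than to its own group (0.25), and that of replicate 3 closer to the untreated arrays (0.22) than to its own group (0.26). By smaller margins, the untreated array of replicate 3 was closer to the Wnt3a arrays (0.216 against 0.228) and the siCTNNB1_Wnt3a array of replicate 3 closer to the siCTNNB1 arrays (0.172 against 0.190).

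Cell type markers moved with several of the comparisons. All 9 hepatocyte markers were tested, none at the floor in every sample, and ALB gave the strongest signal. Their summed level, in multiples of the 75th percentile, was 1455, 1080 and 758 on the untreated arrays and 891, 389 and 893 with Wnt3a. It was 400, 366 and 380 after siCTRL, and 357, 239 and 366 with FZD8_CRD. With Wnt3a added it was 263, 189 and 256 after siCTRL and 394, 385 and 379 with FZD8_CRD. After siCTNNB1 it was 613, 465 and 585 without Wnt3a and 280, 384 and 486 with it. The sum was thus highest on the 3 untreated arrays and the Wnt3a arrays of replicates 1 and 3. Of 7 biliary markers 5 were tested, without EPCAM (read on 1 of 24 arrays) and PROM1 (at the floor on all 24). KRT19 gave 92 to 97% of the summed level, which ran from 228 to 388. SPP1 fell with the control siRNA and with FZD8_CRD, each without and with Wnt3a, and with Wnt3a in untransfected cells. It rose after siCTNNB1 without and with Wnt3a. With FZD8_CRD, without and with Wnt3a, KRT19 rose and SOX9 fell, and SOX9 also fell after siCTNNB1 with Wnt3a. THY1 was at the floor among 8 mesenchymal markers, of which 7 were tested, and CDH2 gave the strongest signal. All 4 blood and endothelial markers were tested. PTPRC, the defining marker of blood cells, stayed between -4.53 and -3.30. CD68 gave the strongest signal of these and ran from -0.14 to 1.95. It fell with FZD8_CRD alone and rose with Wnt3a in the presence of FZD8_CRD. PECAM1 fell after siCTNNB1 without Wnt3a. In these bulk samples fewer cells of a type and less RNA per cell cannot be told apart, and the part of any cell type in the results on the 10 genes was not tested.

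Wnt3a changed 1 of the 10 genes in untransfected cells, MYCN, where 5.6% of all genes tested were called. MYCN was also the 1 gene called with Wnt3a after siCTRL (2.11% of all genes) and in the presence of FZD8_CRD (8.29%). After siCTNNB1, limma called 0 of the 10 with Wnt3a, where 0.0406% of all genes were called, and 1 had an unadjusted p under 0.05. Counts of 1 among 10 are close to these background shares.

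The other interventions called more of the 10, and also more of all genes. The control siRNA raised 4 without Wnt3a (MYCN, CCND3, CDKN1A and CDKN2A; 22.3% of all genes called) and 3 with it (MYCN, CCND3 and CDKN1A; 9.04%). Against the control siRNA, siCTNNB1 raised 3 without Wnt3a (CCND1, CCND2 and CDKN1B) and lowered 1 (MYCN), where 10.6% of all genes were called. With Wnt3a it raised 4 (MYC, CCND1, CCND2 and CDKN1B) and again lowered MYCN, beside 10.6% of all genes. FZD8_CRD alone raised 8 and lowered 0, all but CCND2 and CDKN2B, but in a comparison in which 41.9% of all genes were called. Given with Wnt3a and set against Wnt3a alone, it raised 3 (MYC, MYCN and CDKN1A) and lowered 1 (CCND2), beside 37.2% of all genes. That count of 4 among 10 is close to the share of all genes. Comparisons that use the same control arrays share those samples, so their values are given side by side only.

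**Figure D1:**
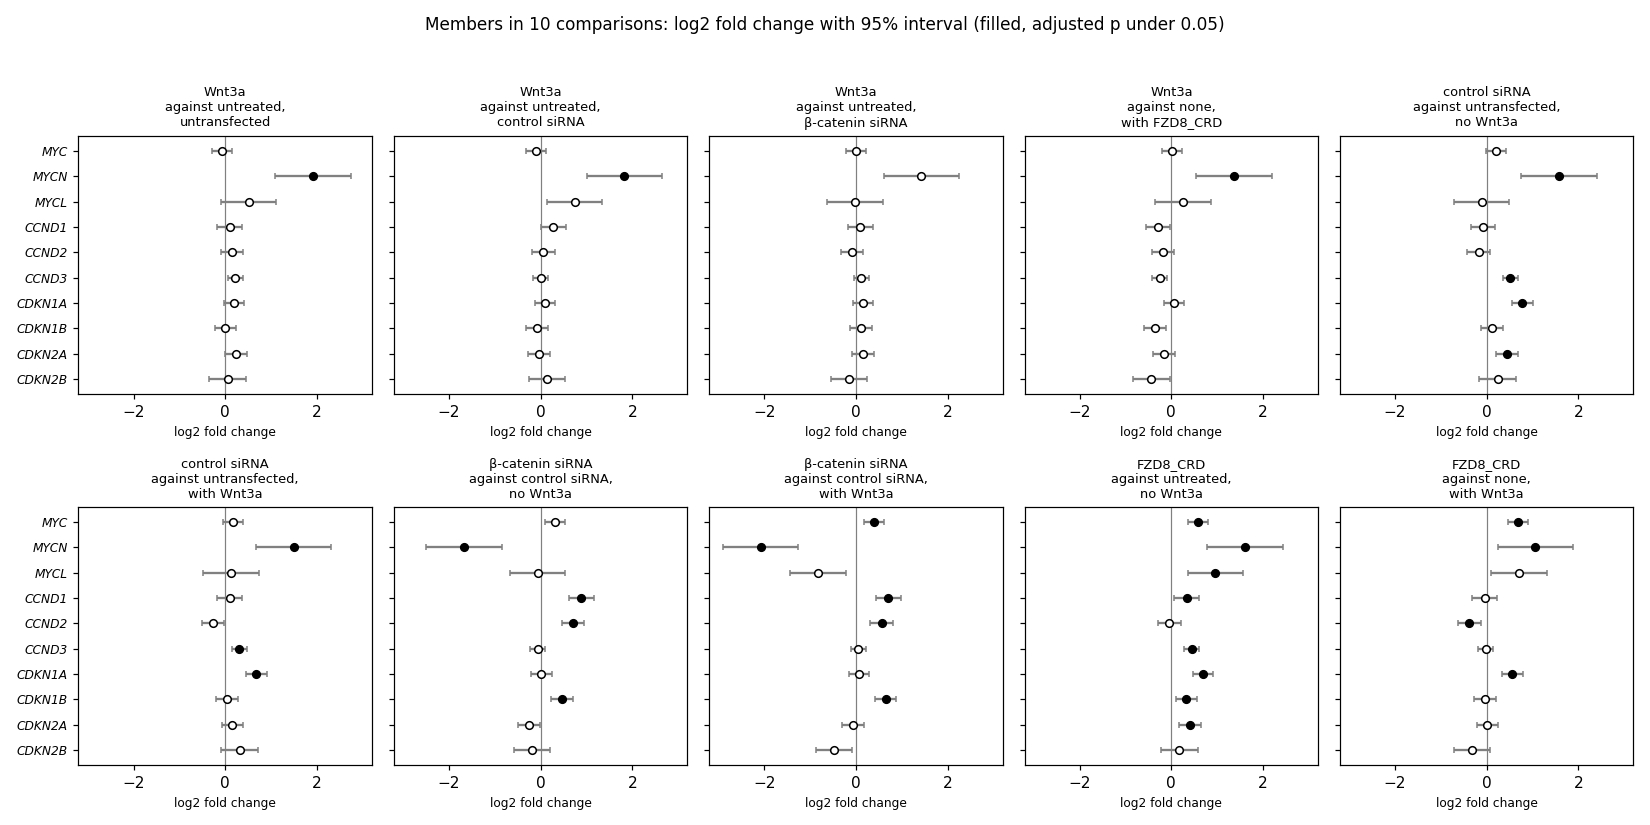
Log2 fold change (horizontal axis) of each of the 10 genes in the 10 comparisons of 2 conditions, with the 95% confidence interval from limma over 24 arrays. Filled points have an adjusted p under 0.05; MYCN is filled in 9 of the 10 panels and CDKN2B in none.

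Scaling to the spiked-in RNA in place of the 75th percentile moved the median of all genes by -0.39 for Wnt3a in untransfected cells, 0.16 after siCTRL and -0.13 after siCTNNB1. It moved it by -0.28 and 0.27 for the control siRNA without and with Wnt3a, by -0.21 for siCTNNB1 with Wnt3a, by -0.38 for FZD8_CRD alone, and by -0.29 and 0.30 for the differences between Wnt3a responses with siCTNNB1 and with FZD8_CRD. Under that scaling CCND1 and CDKN1B with FZD8_CRD alone turned to -0.05 and -0.06, both still above the all-gene median of -0.46, and no other called change of the 10 genes turned. Only MYCN was then called, in 6 of the comparisons: for Wnt3a in untransfected cells and after siCTRL, for the control siRNA without and with Wnt3a, for siCTNNB1 with Wnt3a and for FZD8_CRD alone.

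MYC was read by A_23_P215956, well above background on all 24 arrays. Its level was 3.24, 3.35 and 3.37 on the untreated arrays and 3.09, 3.15 and 3.49 with Wnt3a. It was 3.99, 4.03 and 3.70 with FZD8_CRD and 3.91, 3.89 and 3.96 with FZD8_CRD and Wnt3a. All 6 arrays with FZD8_CRD lay above all 6 untransfected arrays without it, and Wnt3a left both pairs of conditions overlapping. MYC rose by 0.58 with FZD8_CRD alone (95% interval 0.37 to 0.80; adjusted p = 0.00015) and by 0.68 with Wnt3a present (adjusted p = 5.09e-05), on 3 of 3 slides in both. The first value of MYC was 0.69 without replicate 3 of FZD8_CRD (adjusted p = 4.47e-05).

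After the control siRNA, MYC was at 3.53, 3.51 and 3.51 without Wnt3a and at 3.31, 3.58 and 3.37 with it. After siCTNNB1 it was at 3.86, 3.87 and 3.73 without and at 3.91, 3.92 and 3.64 with Wnt3a. Every siCTNNB1 array lay above every control siRNA array. With Wnt3a, MYC rose by 0.40 after siCTNNB1 (adjusted p = 0.0149, 3 of 3 slides). Without Wnt3a its log2 fold change was 0.31 on 3 of 3 slides, with an adjusted p of 0.0655, and of 0.049 with the slide as a block. The call with Wnt3a was lost without replicate 1 of siCTRL_Wnt3a (adjusted p = 0.079), replicate 3 of siCTRL_Wnt3a (0.058), replicate 1 of siCTNNB1_Wnt3a (0.0649) or replicate 2 of siCTNNB1_Wnt3a (0.0829). Over 22 of 23 alternatives the adjusted p for FZD8_CRD with Wnt3a stayed under 0.05, the exception being the spike-in scaling. None of the 4 comparisons with Wnt3a called MYC, with adjusted p of 0.785 in untransfected cells, 0.854 after siCTRL, 1 after siCTNNB1 and 0.984 with FZD8_CRD.

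MYCN, the neural and embryonic relative of MYC, was dim, and A_24_P94402 was well above background on 21 of 24 arrays. It was read on 1 of 3 untreated arrays (-5.30, the others at the floor of -6.13) and on 2 of 3 siCTNNB1 arrays without Wnt3a. MYCN thus passed the filter on dim probes only through the other conditions, in which it was higher. Its calls against the untreated arrays, and for siCTNNB1 against siCTRL without Wnt3a, set a passing condition against one that did not pass. With Wnt3a it was at -4.57, -2.54 and -4.71, so all 3 treated arrays lay above all untreated ones, with replicate 2 far above its companions. MYCN rose by 1.91 with Wnt3a (95% interval 1.09 to 2.73; adjusted p = 0.00937, 3 of 3 slides). Both the interval and the p-value use 1 spread shared by the 8 conditions. The SD of MYCN itself was 1.22 with Wnt3a and 0.48 untreated, against 0.08 after siCTRL. Since 2 of the untreated arrays were set to the floor, the size of this rise of MYCN and its interval depend on the floor. It was 2.18 with a floor of 1 intensity unit and 0.69 with normexp background correction, a setting that also uses the median spot signal, an offset and quantile normalization. The fold change was 1.21 without replicate 2 of Wnt3a (adjusted p = 0.0411). The call was lost without replicate 1 of the untreated arrays (1.77, adjusted p = 0.0506) or replicate 2 of them (1.77, adjusted p = 0.0502). It was also lost with only the conditions compared, a fit that takes the spread from these arrays alone.

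On the siCTRL arrays MYCN was at -4.21, -4.25 and -4.37, and with Wnt3a at -2.77, -2.18 and -2.40. On the siCTNNB1 arrays it was at -5.90 and -5.82 with the last at the floor, and with Wnt3a at -4.08, -4.61 and -4.89. The siCTNNB1 arrays were the lowest of the transfected ones, and those with siCTNNB1 and Wnt3a overlapped the siCTRL arrays without Wnt3a. With siCTNNB1 against siCTRL, MYCN fell by 1.68 without Wnt3a (adjusted p = 0.00854) and by 2.08 with Wnt3a (95% interval -2.90 to -1.25; adjusted p = 0.00136), on 3 of 3 slides each. The fall without Wnt3a lost its call with normexp background correction (-0.46, adjusted p = 0.174) and spike-in scaling (-1.54, adjusted p = 0.0754), and without replicate 1 (adjusted p = 0.162) or 3 (0.0541) of all conditions. The fall with Wnt3a kept an adjusted p under 0.05 in all 22 alternatives in which MYCN was tested, the highest being 0.0292, while its size ran from -2.46 to -1.04. Wnt3a raised MYCN by 1.83 after siCTRL (adjusted p = 0.0201, 3 of 3 slides; 0.93 to 2.02 over the alternatives). After siCTNNB1 the log2 fold change with Wnt3a was 1.42, also on 3 of 3 slides, with an adjusted p of 0.216. With 1 siCTNNB1 array at the floor this value of MYCN is not exact, and it was 0.36 with normexp background correction. The fall of 1.68 without Wnt3a and the difference between responses rest on the same array and are not exact either. These responses to Wnt3a were not shown to differ, the difference being -0.40 with an adjusted p of 1. The call after siCTRL was lost without any array of siCTRL (adjusted p = 0.0795, 0.057 and 0.0928 for replicates 1, 2 and 3) and without replicate 2 or 3 of siCTRL_Wnt3a (0.113 and 0.0765).

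With FZD8_CRD, MYCN was at -4.41, -4.41 and -3.93, and with FZD8_CRD and Wnt3a at -2.64, -2.93 and -3.09. Each of these 6 values was above all untreated arrays, and those with both agents were above those with FZD8_CRD alone. MYCN rose by 1.60 with FZD8_CRD (adjusted p = 0.00271, 3 of 3 slides) and by 1.37 with Wnt3a on top of it (adjusted p = 0.0364, 3 of 3 slides; 0.60 to 1.63 over the alternatives). The size of the rise with FZD8_CRD again depends on untreated arrays at the floor and ran from 0.64 to 2.13 over the alternatives for MYCN, with the call lost without replicate 1 of all conditions (adjusted p = 0.0552). It was 1.44 without replicate 3 of FZD8_CRD (adjusted p = 0.0142). The second call was lost without replicate 1 or 2 of FZD8_CRD (adjusted p = 0.179 and 0.17) or any array of FZD8_CRD_Wnt3a (0.136, 0.0953 and 0.0667). Set against Wnt3a alone the rise with both agents was 1.06 (adjusted p = 0.0405), on 2 of 3 slides, since the Wnt3a array of slide 2 was above its FZD8_CRD_Wnt3a partner. Without that array it was 1.76 (adjusted p = 4.54e-05), without the Wnt3a array of replicate 1 it was 0.74 (0.212) and without that of replicate 3 it was 0.67 (0.214). It was also lost without each array of FZD8_CRD_Wnt3a (adjusted p = 0.125, 0.0793 and 0.0547). The responses to Wnt3a without and with FZD8_CRD were not shown to differ (difference -0.54, adjusted p = 0.806), and the difference was 0.16 without the Wnt3a array of replicate 2.

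MYCN was higher after the control siRNA, while on the siCTNNB1 arrays without Wnt3a it was near the floor as in untreated cells. Against untransfected cells, the control siRNA raised it by 1.58 without Wnt3a (adjusted p = 0.00654) and by 1.49 with Wnt3a (adjusted p = 0.0229), on 3 of 3 slides each. Without Wnt3a the size of this rise of MYCN depends on the untreated arrays at the floor and ran from 0.54 to 1.99 over the alternatives, and the call was lost with normexp background correction (0.54, adjusted p = 0.0594) and without replicate 1 of all conditions (1.40, adjusted p = 0.177). With Wnt3a this rise of MYCN ran from 0.78 to 2.19 over the alternatives. Its call was lost without replicate 1 or 3 of Wnt3a (adjusted p = 0.165 and 0.112) and without replicate 2 or 3 of siCTRL_Wnt3a (0.118 and 0.0713).

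MYCL, the third family member, was read by A_33_P3306068 on all 24 arrays, and by a second probe (A_23_P160668) that was well above background on 10 of 24 and was called in 0 of the 12 comparisons by limma. The first probe was at -4.36, -4.61 and -4.66 on the untreated arrays, at -3.75, -3.77 and -3.23 with FZD8_CRD and at -3.46, -3.23 and -3.30 with FZD8_CRD and Wnt3a. The 6 arrays with FZD8_CRD were above the untreated ones. With Wnt3a alone it was at -4.29, -3.62 and -4.19, which overlapped the FZD8_CRD arrays. MYCL rose by 0.96 with FZD8_CRD (adjusted p = 0.0111, 3 of 3 slides), and by 0.78 without replicate 3 of FZD8_CRD, at an adjusted p of 0.057. This rise of MYCL ran from 0.50 to 1.20 over the alternatives, and its call was also lost with spike-in scaling. With both agents against Wnt3a alone the log2 fold change was 0.70 (adjusted p = 0.0623; 0.0351 with the slide as a block; 0.91 and 0.0284 without replicate 2 of Wnt3a).

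After siCTRL, MYCL was at -4.75, -4.52 and -4.69, and with Wnt3a at -4.47, -2.97 and -4.29. After siCTNNB1 it was at -5.06, -4.46 and -4.64 without and at -4.52, -4.76 and -4.93 with Wnt3a. Replicate 2 of siCTRL_Wnt3a was far above the other transfected arrays. Neither Wnt3a after siCTRL (log2 fold change 0.75, adjusted p = 0.216) nor siCTNNB1 with Wnt3a (-0.83, adjusted p = 0.077) passed the threshold. With the slide as a block the adjusted p of the latter was 0.0403, and without replicate 1 of siCTRL_Wnt3a the fold change was -1.11 with an adjusted p of 0.0263. Without the high array, replicate 2 of siCTRL_Wnt3a, the log2 fold changes of MYCL were 0.28 (adjusted p = 0.748) for Wnt3a and -0.36 (adjusted p = 0.445) for siCTNNB1.

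**Figure D2:**
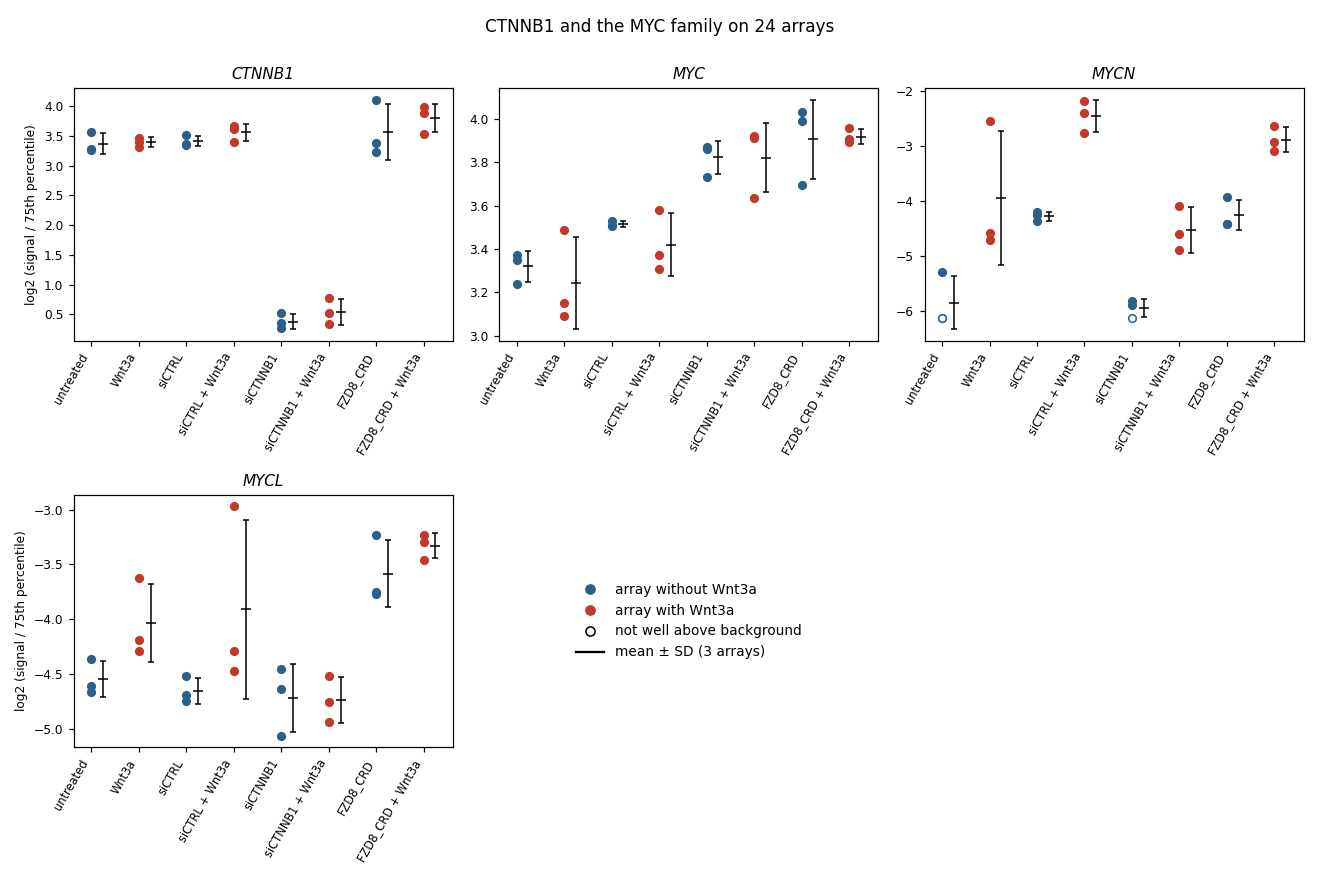
Level of CTNNB1, MYC, MYCN and MYCL (log2 of signal over the 75th percentile, vertical axis) on each of the 24 arrays in the 8 conditions, with mean and SD of 3 arrays beside the points. Open points were not well above background, and the 6 siCTNNB1 arrays sit between 0.26 and 0.77 for CTNNB1.

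Promoters of the members were looked up by symbol in a table of windows drawn from RefSeq (GRCh38.p14), which held 7 of the 10 and not MYC, CCND1 and CCND2. The 250 bases before the start are shown for MYCN, which fell after siCTNNB1, and for CDKN1B, which rose after it. MYCN lies on the plus strand at chr2:15940300-15940549 and CDKN1B on the plus strand at chr12:12717118-12717367.
MYCN: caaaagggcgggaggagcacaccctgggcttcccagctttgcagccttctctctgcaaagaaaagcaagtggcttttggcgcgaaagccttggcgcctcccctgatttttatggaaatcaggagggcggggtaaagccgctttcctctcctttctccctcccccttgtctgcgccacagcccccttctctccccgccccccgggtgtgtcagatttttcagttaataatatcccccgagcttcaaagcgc
CDKN1B: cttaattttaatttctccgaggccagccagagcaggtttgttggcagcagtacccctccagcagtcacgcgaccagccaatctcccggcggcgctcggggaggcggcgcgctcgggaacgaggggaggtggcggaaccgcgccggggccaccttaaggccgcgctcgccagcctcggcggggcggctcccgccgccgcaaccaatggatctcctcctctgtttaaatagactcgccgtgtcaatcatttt
Both strands were searched for the TCF/LEF core, spelled CTTTGAT or CTTTGTT, and for the E-box CACGTG, which MYC dimers bind. Matches would be in capitals, and these letters were in neither window, nor in those of the other 5 genes. Of 35116 promoter windows of the same length, 6.6% held the TCF/LEF core and 6.34% the E-box.

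CCND1, the D cyclin most often tied to Wnt signalling, was at 0.19, 0.36 and 0.08 after siCTRL and at 1.01, 1.09 and 1.19 after siCTNNB1. With Wnt3a it was at 0.46, 0.61 and 0.38 after siCTRL and at 1.12, 1.21 and 1.23 after siCTNNB1. The 6 siCTNNB1 arrays were above all 18 others, which ran from 0.08 to 0.89. After siCTNNB1, CCND1 rose by 0.89 without Wnt3a (95% interval 0.62 to 1.16; adjusted p = 0.000163) and by 0.71 with it (adjusted p = 0.00104), on 3 of 3 slides each. Both calls held in 22 of 23 alternatives, the exception being the spike-in scaling, where the fold changes were 0.97 and 0.50. Wnt3a called CCND1 in none of the 4 comparisons (adjusted p = 0.798 in untransfected cells, 0.35 after siCTRL, 0.928 after siCTNNB1 and 0.203 with FZD8_CRD).

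In untransfected cells CCND1 was at 0.48, 0.23 and 0.17 untreated and at 0.27, 0.49 and 0.40 with Wnt3a. It was at 0.76, 0.89 and 0.24 with FZD8_CRD, and at 0.23, 0.38 and 0.41 with both agents. Replicate 3 of FZD8_CRD lay among the arrays with both agents and its companions lay above all other untransfected arrays. CCND1 rose by 0.34 with FZD8_CRD alone (adjusted p = 0.042, 3 of 3 slides, though by 0.07 on slide 3), and by 0.54 without replicate 3 of FZD8_CRD (adjusted p = 0.000556). The call was lost without replicate 1 or 2 of FZD8_CRD (0.27 and 0.21; adjusted p = 0.147 and 0.248) and without replicate 2 or 3 of the untreated arrays (0.31 and 0.27; adjusted p = 0.111 and 0.144). The call of CCND1 was kept in 11 of 23 alternatives, and was lost also with the deposited values (adjusted p = 0.0611), normexp background correction (0.0582), no filter on dim probes (0.0805) and only the conditions compared (0.225).

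CCND2, a second D cyclin, was at -0.06, -0.16 and -0.21 after siCTRL and at 0.56, 0.48 and 0.64 after siCTNNB1. With Wnt3a it was at 0.05, -0.03 and -0.27 after siCTRL and at 0.37, 0.57 and 0.50 after siCTNNB1. As with CCND1, the 6 siCTNNB1 arrays were above all 18 others, of which the highest was at 0.23. CCND2 rose by 0.71 (adjusted p = 0.000551) and 0.56 (adjusted p = 0.00329) without and with Wnt3a, on 3 of 3 slides each. It was at 0.20, 0.11 and 0.23 with Wnt3a alone and at -0.12, -0.25 and -0.22 with FZD8_CRD and Wnt3a, which did not overlap, and fell by 0.38 between these conditions (adjusted p = 0.016, 3 of 3 slides; 0.0567 without replicate 2 of FZD8_CRD_Wnt3a). It was at 0.13, 0.05 and -0.07 untreated and at 0.11, 0.23 and -0.37 with FZD8_CRD alone, where the third array was the lowest of all 24 and the groups overlapped (adjusted p = 0.783).

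CCND3, the third D cyclin, was higher on the transfected arrays than on the untransfected arrays without FZD8_CRD. It was at 1.94, 2.01 and 1.98 untreated and at 2.17, 2.30 and 2.13 with Wnt3a. After siCTRL it was at 2.49, 2.53 and 2.47, and with Wnt3a at 2.47, 2.58 and 2.46. The 6 siCTNNB1 arrays, from 2.40 to 2.60, overlapped these, and all 12 transfected arrays were above the 6 untransfected arrays without FZD8_CRD. The control siRNA raised CCND3 by 0.51 without Wnt3a (adjusted p = 0.00023) and by 0.30 with it (adjusted p = 0.0207), on 3 of 3 slides each. The second call was lost without replicate 1 or 3 of Wnt3a (adjusted p = 0.108 and 0.0768) or replicate 2 of siCTRL_Wnt3a (0.121). Under the spike-in scaling the fold change of CCND3 was 0.24 without Wnt3a (adjusted p = 0.602) and 0.58 with it (adjusted p = 0.353).

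With FZD8_CRD, CCND3 was at 2.51, 2.59 and 2.20, and with both agents at 2.10, 2.19 and 2.25. The first pair of FZD8_CRD arrays stood above all untransfected arrays, and the array of replicate 3 lay among those with both agents. CCND3 rose by 0.45 with FZD8_CRD alone (adjusted p = 0.000124, 3 of 3 slides; 0.06 and 0.878 under the spike-in scaling; 0.57 and 2.58e-06 without replicate 3 of FZD8_CRD), while with Wnt3a present FZD8_CRD gave no call (adjusted p = 0.846). For Wnt3a, CCND3 had a log2 fold change of 0.22 without FZD8_CRD (adjusted p = 0.101; 0.0489 with the slide as a block) and of -0.25 with it (adjusted p = 0.0513; 0.023 with the block; -0.37 and 0.000314 without replicate 3 of FZD8_CRD). The difference between these responses was -0.47, negative on 3 of 3 slides, with an adjusted p of 0.0928, and of 0.0414 with the slide as a block. It was -0.59 without replicate 3 of FZD8_CRD (adjusted p = 0.000239), and passed the threshold also without replicate 3 of the untreated arrays (0.0431) or of Wnt3a (0.0484).

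CDKN1A encodes p21, a CIP/KIP inhibitor and a target of p53. It was at 1.21, 1.13 and 0.99 untreated and at 1.33, 1.42 and 1.15 with Wnt3a. After siCTRL it was at 1.97, 1.92 and 1.76, and with Wnt3a at 1.94, 2.24 and 1.76. With FZD8_CRD it was at 1.88, 1.91 and 1.63, and with both agents at 1.94, 1.87 and 1.77. The 6 untransfected arrays without FZD8_CRD, up to 1.42, were below all 18 others, which began at 1.63 and included the siCTNNB1 arrays (1.83 to 2.14). CDKN1A rose with the control siRNA by 0.77 (adjusted p = 0.000126) without and 0.68 (adjusted p = 0.00199) with Wnt3a, and with FZD8_CRD by 0.69 (adjusted p = 3.61e-05) without and 0.56 (adjusted p = 0.000397) with Wnt3a, on 3 of 3 slides in all 4. With FZD8_CRD alone CDKN1A rose by 0.78 without replicate 3 of FZD8_CRD (adjusted p = 2.81e-05). Leaving out any single array lost none of the 4 calls, but all 4 were lost with spike-in scaling. That of CDKN1A with the control siRNA and Wnt3a was also lost without replicate 1 of all conditions (adjusted p = 0.12) and with only the conditions compared (0.176). Neither Wnt3a nor siCTNNB1 called CDKN1A, with adjusted p of 0.98 and 0.838 for siCTNNB1 without and with Wnt3a.

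CDKN1B encodes p27, the other CIP/KIP inhibitor among the members. On A_24_P81841 it was at 0.19, 0.14 and 0.36 after siCTRL and at 0.64, 0.71 and 0.72 after siCTNNB1. With Wnt3a it was at 0.04, 0.22 and 0.19 after siCTRL and at 0.78, 0.85 and 0.76 after siCTNNB1. The siCTNNB1 arrays were above all control siRNA arrays. CDKN1B rose after siCTNNB1 by 0.46 without Wnt3a (adjusted p = 0.0109) and by 0.65 with it (adjusted p = 0.000654), on 3 of 3 slides each. The first call of CDKN1B was lost without replicate 1 or 2 of siCTRL (adjusted p = 0.0502 and 0.0546), and both were lost with spike-in scaling and without replicate 1 or 2 of all conditions (adjusted p = 0.211 and 0.227 for the first, 0.0735 and 0.0531 for the second). A second probe, A_23_P204696, had the 6 siCTNNB1 arrays between -0.12 and 0.31, above the other 18, of which the highest was at -0.14, with fold changes of 0.55 (adjusted p = 0.0506) and 0.59 (adjusted p = 0.0341).

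With FZD8_CRD the first CDKN1B probe was at 0.62, 0.65 and 0.04, against 0.12, 0.07 and 0.14 untreated and 0.12, 0.05 and 0.08 with both agents. Again the array of replicate 3 was next to the untreated arrays and those with both agents, and its companions were far above them. CDKN1B rose by 0.33 with FZD8_CRD (adjusted p = 0.025) but on 2 of 3 slides, and the second probe gave 0.04 (adjusted p = 0.883). Without replicate 3 of FZD8_CRD the rise was 0.52 (adjusted p = 2.76e-05), and without replicate 1 or 2 of FZD8_CRD the log2 fold change was 0.23 or 0.22 (adjusted p = 0.133 and 0.16). The call was lost also without replicate 1 or 2 of the untreated arrays (adjusted p = 0.0536 and 0.0678). With Wnt3a on top of FZD8_CRD the log2 fold change of CDKN1B was -0.36 (adjusted p = 0.0572; 0.0474 with the slide as a block), and -0.55 without replicate 3 of FZD8_CRD (adjusted p = 3.14e-05).

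CDKN2A, which encodes the INK4 inhibitor p16 and the unrelated protein ARF, was at 4.84, 5.18 and 4.99 untreated on A_23_P43490. It was at 5.47, 5.56 and 5.30 after siCTRL and at 5.58, 5.55 and 5.12 with FZD8_CRD. The siCTRL arrays were above all untreated ones, and the FZD8_CRD array of replicate 3 overlapped them. CDKN2A rose by 0.44 with the control siRNA (adjusted p = 0.00848) and by 0.41 with FZD8_CRD (adjusted p = 0.00642), on 3 of 3 slides each. The first of these calls was lost without replicate 1 of the untreated arrays (0.36, adjusted p = 0.0634). Under the spike-in scaling the fold changes of CDKN2A were 0.16 and 0.02, and neither was called. The call with FZD8_CRD was also lost with only the conditions compared. The rise of CDKN2A with FZD8_CRD was 0.56 without replicate 3 of FZD8_CRD (adjusted p = 0.000344). A second CDKN2A probe (A_33_P3411628) gave 0.44 (adjusted p = 0.0365) and 0.51 (adjusted p = 0.00747). On the arrays of the remaining conditions the first probe was between 5.10 and 5.50.

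CDKN2B, which encodes the INK4 inhibitor p15, stayed between -2.99 and -2.08 on all 24 arrays and was not called in any of the 12 comparisons by limma. It was at -2.19, -2.12 and -2.20 with siCTRL and Wnt3a and at -2.63, -2.67 and -2.65 with siCTNNB1 and Wnt3a, which did not overlap. That difference had an adjusted p of 0.129, and of 0.0151 with the slide as a block (log2 fold change -0.48). It was at -2.14, -2.15 and -2.81 with FZD8_CRD and at -2.83, -2.60 and -2.99 with both agents. For Wnt3a on top of FZD8_CRD the adjusted p was 0.188, against 0.0304 with the block and 0.0154 without replicate 3 of FZD8_CRD, and for both agents against Wnt3a alone it was 0.208, against 0.0475 with the block.

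**Figure D3:**
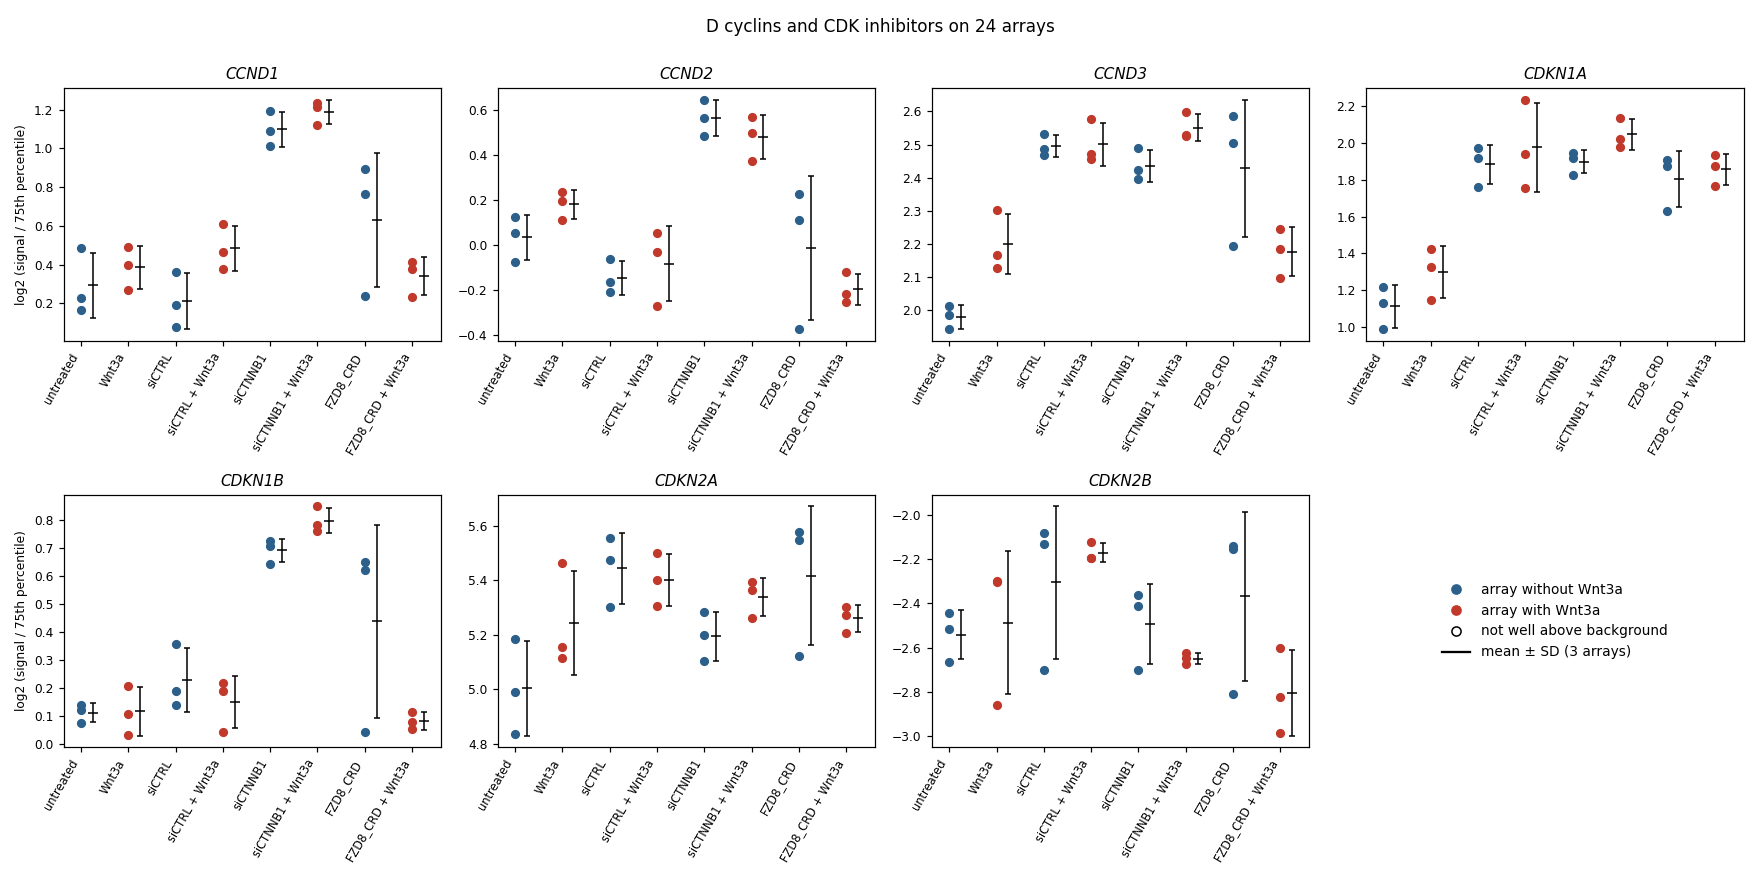
Level of the D cyclins and CDK inhibitors (log2 of signal over the 75th percentile, vertical axis) on each of the 24 arrays in the 8 conditions, with mean and SD of 3 arrays beside the points. CCND1 and CCND2 are highest on the 6 siCTNNB1 arrays, and 1 FZD8_CRD array departs from its companions in CCND1, CCND2, CCND3, CDKN1B, CDKN2A and CDKN2B.

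Differences between responses to Wnt3a were tested for all 10 genes. Between siCTNNB1 and siCTRL, limma called 0 of the 10 (0.0162% of all genes called), and 0 had an unadjusted p under 0.05. Between cells with and without FZD8_CRD it called 0 (0.073% of all genes), and 3 had an unadjusted p under 0.05 (CCND3, CDKN1B and CDKN2A). Without replicate 3 of FZD8_CRD it called 5: CCND1 (-0.58), CCND2 (-0.51), CCND3 (-0.59), CDKN1B (-0.56) and CDKN2A (-0.54), where 7.75% of all genes were called. With that array in place these differences were -0.38, -0.33, -0.47, -0.36 and -0.40.

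Many genes of the G1 machinery on which the members act rose with the control siRNA and with FZD8_CRD, in comparisons that called 22.3% (9.04% with Wnt3a) and 41.9% (37.2% with Wnt3a) of all genes. No test of a list as a whole was run. Of 16 genes for G1 cyclins, kinases, RB and E2F proteins, 12 rose and 0 fell with the control siRNA without Wnt3a, with a list median of 0.55 against -0.03 for all genes, and 4 rose with Wnt3a. With FZD8_CRD 15 rose (median 0.82 against -0.09), and with FZD8_CRD and Wnt3a 12 rose. E2F1, the transcription factor released by RB, rose by 1.48 with the control siRNA (adjusted p = 0.000296) and by 1.76 with FZD8_CRD (adjusted p = 8.43e-06), on 3 of 3 slides each. The second rise of E2F1 was 1.62 without replicate 3 of FZD8_CRD (adjusted p = 7.95e-05). The first lost its call without replicate 1 of all conditions (adjusted p = 0.0542). After siCTNNB1 0 of the 16 rose and 1 fell without Wnt3a, the D cyclin partner CDK4 (-0.41, adjusted p = 0.0248, 3 of 3 slides), and limma called 0 with Wnt3a. The fall of CDK4 lost its call without replicate 1 or 2 of siCTRL (adjusted p = 0.0927 and 0.108) or replicate 3 of siCTNNB1 (0.147). The rises of CCND1, CCND2 and CDKN1B after siCTNNB1 came beside 1 call in this list, a fall. A count of 1 among 16 is close to the 10.6% of all genes called after siCTNNB1, without and with Wnt3a.

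Genes of S phase and mitosis rose in the comparisons in which CDKN1A rose. Of 20 such genes, 19 rose with the control siRNA (median 1.04), 16 with the control siRNA and Wnt3a (0.73), 19 with FZD8_CRD (1.45) and 19 with FZD8_CRD and Wnt3a (0.93), and 0 fell. In the same order, 22.3%, 9.04%, 41.9% and 37.2% of all genes were called. After siCTNNB1, 0 were called without Wnt3a and 1 rose with it, beside 10.6% of all genes each time. MKI67, a marker of dividing cells, was at 0.81, 0.94 and 1.35 untreated, at 2.05, 2.03 and 1.84 after siCTRL and at 2.20, 2.24 and 1.78 with FZD8_CRD. It rose by 0.94 with the control siRNA (adjusted p = 0.0216) and by 1.04 with FZD8_CRD (adjusted p = 0.00603), on 3 of 3 slides each, and the second rise of MKI67 was 1.19 without replicate 3 of FZD8_CRD (adjusted p = 0.0058). With Wnt3a present MKI67 was called neither with the control siRNA (adjusted p = 0.501) nor with FZD8_CRD (0.469). The call of MKI67 with the control siRNA was lost without replicate 1 or 2 of the untreated arrays (adjusted p = 0.0986 and 0.0642) or of siCTRL (0.0672 and 0.0614). Both calls of MKI67 were lost with spike-in scaling (0.66 and 0.65) and without replicate 1 or 2 of all conditions. CDKN1A, an inhibitor, was thus higher in the same conditions as these cell cycle genes.

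The same comparisons lowered hepatocyte markers, 9 of 9 with the control siRNA (median -2.02) and 9 of 9 with FZD8_CRD (median -2.41), and 4 and 5 of 9 when Wnt3a was present. These comparisons called 22.3% and 41.9% of all genes, and 9.04% and 37.2% when Wnt3a was present. The part of hepatocyte markers in the changes of the members was not tested. Of 3 further CDK inhibitors, CDKN2C and CDKN2D rose with the control siRNA and with FZD8_CRD, without and with Wnt3a, and CDKN1C fell with FZD8_CRD alone. CDKN2C rose by 1.01 (adjusted p = 8.04e-06) and CDKN2D by 1.02 (adjusted p = 2.5e-06) with FZD8_CRD alone, on 3 of 3 slides each, and these rises of CDKN2C and CDKN2D were 1.19 and 1.16 without replicate 3 of FZD8_CRD. With siCTNNB1 and Wnt3a they rose by 0.70 (adjusted p = 0.00148) and 0.49 (adjusted p = 0.0108), beside 10.6% of all genes called. Both calls were lost with spike-in scaling and without replicate 1 of all conditions. CDKN2C also rose after siCTNNB1 without Wnt3a (0.43, adjusted p = 0.0481), a call lost in 12 of 23 alternatives.

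Of 12 genes activated by MYC, 7 rose with the control siRNA (22.3% of all genes called), where MYC was not called (adjusted p = 0.206), and 1 (CAD) with the control siRNA and Wnt3a (9.04%). With FZD8_CRD 8 rose (41.9% of all genes) and with FZD8_CRD and Wnt3a 7 (37.2%), and MYC rose in both. After siCTNNB1 0 rose and 3 fell (NPM1, CAD and CDK4) without Wnt3a (10.6% of all genes), and limma called 0 with Wnt3a, where MYC rose. Among 10 partners and antagonists of MYC, FZD8_CRD raised 2 and lowered 4, beside 41.9% of all genes called, and siCTNNB1 raised 1 (MXD4) without Wnt3a and lowered 1 (MNT) with it, which is close to the 10.6% of all genes. Of 18 p53 targets other than CDKN1A, 5 rose after siCTNNB1 without Wnt3a and 9 with it, and 0 fell, beside 10.6% of all genes each time. CDKN1A itself was not called there. With FZD8_CRD 8 of them rose and 1 fell, beside 41.9% of all genes called, and with the control siRNA 5 rose and 1 fell, beside 22.3%. With Wnt3a present 5 rose and 1 fell with FZD8_CRD (37.2%). With the control siRNA and Wnt3a 0 rose and 1 fell (9.04%), where CDKN1A rose.

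Wnt feedback targets were set beside the members as a readout of the pathway. Of 11 genes 9 were tested, with LGR5 and NOTUM at the floor on all 24 arrays. With Wnt3a 5 rose in untransfected cells (5.6% of all genes called) and 5 after siCTRL (2.11%), and limma called 0 after siCTNNB1 (0.0406%). In the presence of FZD8_CRD Wnt3a raised 2 (RNF43 and TCF7) and lowered 1 (DKK1), beside 8.29% of all genes. With siCTNNB1 against siCTRL 5 fell without and 7 with Wnt3a, beside 10.6% of all genes each time. AXIN2 rose by 0.60 with Wnt3a after siCTRL (adjusted p = 0.00662) and fell by 0.74 with siCTNNB1 in the presence of Wnt3a (adjusted p = 7.89e-05), on 3 of 3 slides each. The rise of AXIN2 lost its call without replicate 2 of siCTRL_Wnt3a (adjusted p = 0.0517) or replicate 3 of siCTRL (0.0564). MYCN rose with Wnt3a in untransfected cells and after siCTRL and fell with siCTNNB1, where CCND1 and CCND2 rose. With FZD8_CRD alone 2 of the targets rose (SP5 and LEF1) and 3 fell (AXIN2, RNF43 and DKK1; 41.9% of all genes called). With FZD8_CRD and Wnt3a 0 rose and 4 fell (AXIN2, RNF43, NKD2 and DKK1; 37.2%). MYCN rose in both and CCND2 fell in the second.

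**Figure D4:**
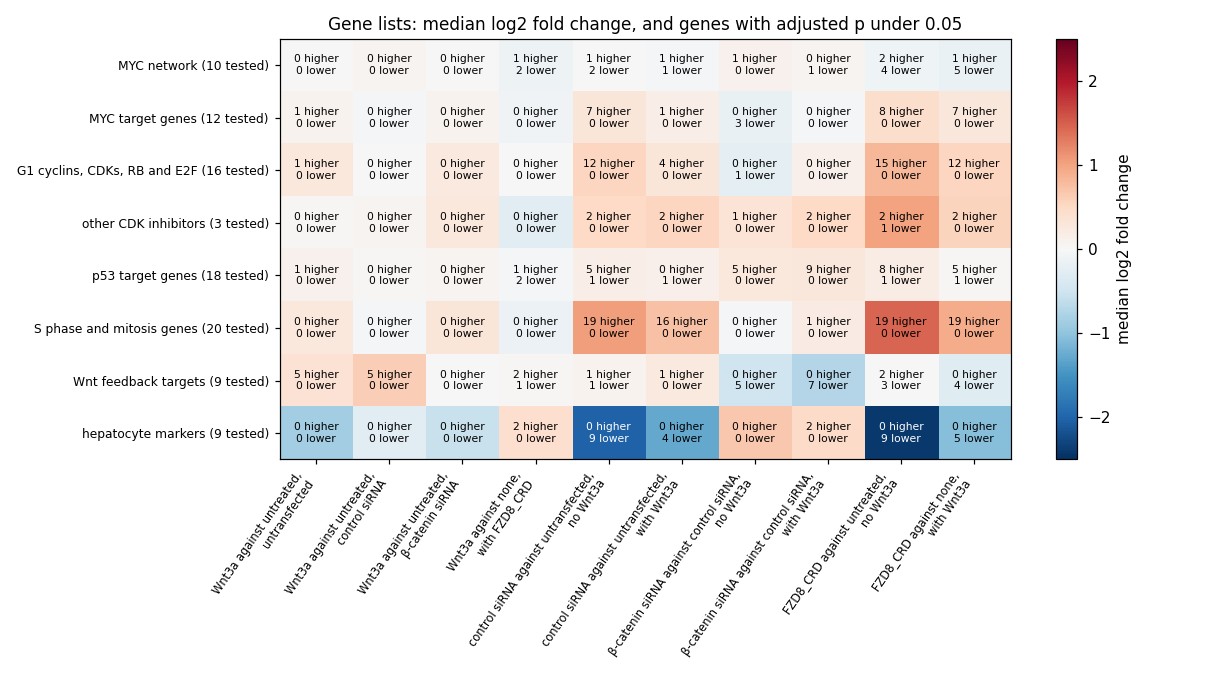
Median log2 fold change (colour) of 8 gene lists in the 10 comparisons of 2 conditions, with the genes called higher and lower written in each cell. S phase and mitosis genes are higher and hepatocyte markers lower with the control siRNA and with FZD8_CRD, and Wnt feedback targets are lower after siCTNNB1.

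Across the 24 arrays the members fell into sets of similar pattern, given here as descriptions over arrays that share conditions and slides. CCND1 and CDKN1B had a Pearson r of 0.89, CCND1 and CCND2 of 0.85, and CCND2 and CDKN1B of 0.79. CCND3 had an r of 0.82 with CDKN1A and 0.75 with CDKN2A. MYCN and CCND2 had an r of -0.58, and MYC and MYCN of -0.00474. Outside the list, the genes most like MYC over the 24 arrays were TRIM37 (r = 0.95), SNX7 (0.94) and COPS4 (0.93). Those most like MYCN were PKP3 (0.97), STXBP6 (0.95) and HYAL2 (0.94), and those most like CDKN1A were MAPK3 (0.96), CENPB (0.93) and ASH2L (0.93). Those most like CDKN1B were SPATA18 (0.95), REV3L (0.94) and SUN1 (0.94), and REV3L (0.89) stood also beside CCND1, after TRNAU1AP (0.90). TMUB2 (0.94) was the most like CCND3, CCDC178 (0.91) the most like CCND2, PLEKHO1 (0.90) the most like MYCL and BRIX1 (0.92) the most like CDKN2A.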

How the data were processed

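The arrays were Agilent one-colour (Cy3) expression arrays with 62976 spots each. The deposited scanner files hold spot intensity values, background-subtracted and detrended by Agilent Feature Extraction (10.7.3.1 per the submitters' processing notes). The authors also deposited a table of log2 values scaled to the 75th percentile and centred on each probe's median, as its values show, which served as an alternative only.

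Processed intensities were divided by the 75th percentile of each array, floored at 1.43 percent of it and taken to log2. Control spots and outlier spots were left out, and spots of a probe averaged. Between 58.3 and 66.5 percent of spots were well above background. A probe was kept if some condition had it well above background throughout its 3 arrays (31067 probes), which a probe with several spots met with a share of 0.5 of them; this share was chosen after calls under another rule had been seen. The probe with the highest mean stood for a gene, giving 24648 genes. The 8 condition means were estimated from all 24 arrays with limma 3.58.1 in R 4.3.3, with a trend in the variance and Benjamini-Hochberg adjustment, and the fit was tried on simulated data. Tables and figures used Python 3.11.15, pandas 2.3.3 and matplotlib 3.10.9. Precision is limited by the 3 arrays per condition.

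The members and gene lists were chosen with earlier results of these data known. Named are all 10 members, CTNNB1, AXIN2, MKI67, in each other list up to 3 genes called with the largest change per comparison, and for called members 1 to 3 of the 3 genes most correlated with each. Genes named outside this rule, and the FZD8_CRD array singled out, were chosen after their values were seen. Alternatives covered scaling, background correction, filters, floor, probe choice, the slide as a block, the arrays fitted, the call rule and leaving out arrays. The alternative called normexp background correction starts from the median spot signal and also adds an offset and quantile normalization, so its effect is of these steps together.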

Additional observations from a re-analysis of the deposited data

Results flagged for a closer look

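RNF43, a Wnt feedback target outside the 10 genes, was the 1 named gene whose responses to Wnt3a differed between siRNAs by limma's test of the difference. The response after siCTNNB1 was lower than that after siCTRL by 1.23 on the log2 scale (difference -1.23, adjusted p = 0.0013, 3 of 3 slides). Its levels were 1.00, 1.08 and 0.80 after siCTRL, 1.92, 1.92 and 2.12 with Wnt3a, 0.33, 0.24 and 0.32 after siCTNNB1 and -0.15, 0.12 and 0.30 with siCTNNB1 and Wnt3a. The value ranged from -1.53 to -1.11 over the alternatives and lost its call with spike-in scaling, without replicate 1 and without replicate 2.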

How the results depend on the processing

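Each count and each named fold change was recomputed under 14 other settings and without single arrays or whole slides, and counts are of the 10 genes. Counts are listed where they moved by more than 1.5 times, and some smaller moves and exchanges of genes are left unlisted. Calls over all genes moved with the setting too. With only the conditions compared, 2 genes were called higher and 0 lower for Wnt3a in untransfected cells. For the control siRNA with Wnt3a these were 0 and 1. With spike-in scaling they were 129 and 1480 for the control siRNA alone, and 68 and 113 for siCTNNB1 without Wnt3a.

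For Wnt3a in untransfected cells the count of 1 became 2 with normexp background correction (MYCN and CDKN2A), 0 with a filter on all 24 arrays and 0 with only the conditions compared, and 0 to 2 with arrays left out. For Wnt3a after siCTRL the count of 1 became 0 with the deposited values, with no filter on dim probes and with a filter on all 24 arrays, and 0 to 1 with arrays left out. For Wnt3a after siCTNNB1 the count of 0 became 1 with the thresholds of the methods (MYCN), and stayed 0 with arrays left out. For Wnt3a with FZD8_CRD the count of 1 became 0 with quantile normalization, spike-in scaling, the deposited values, no filter, a floor of 1 intensity unit or only the conditions compared, and 2 with the mean of the kept probes (MYCN and CCND3), with 0 to 6 when arrays were left out. The count stayed 1 with normexp and with the filter on all 24 arrays, but the gene was then CCND3 and not MYCN. The normexp setting also replaced the processed signal by the median spot signal, added an offset and used quantile normalization, so what it moved is not due to background correction alone.

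For the control siRNA without Wnt3a the count of 4 became 1 with spike-in scaling and 2 with the thresholds of the methods, and 1 to 6 with arrays left out. With Wnt3a the count of 3 became 1 with spike-in scaling, 2 with the thresholds of the methods and 0 with only the conditions compared, and 0 to 3 with arrays left out. For siCTNNB1 without Wnt3a the count of 4 became 0 with spike-in scaling and 3 with the thresholds of the methods, and 2 to 4 with arrays left out; with normexp it stayed 4, with MYC in place of MYCN. With Wnt3a the count of 5 became 1 with spike-in scaling and 4 with the thresholds of the methods, and 2 to 6 with arrays left out. For FZD8_CRD alone the count of 8 became 1 with spike-in scaling, 5 with only the conditions compared and 3 with the thresholds of the methods, and 4 to 8 with arrays left out. Over all genes this comparison called 4851 higher and 5471 lower in the main fit. These became 555 and 6788 with spike-in scaling, 3084 and 3303 with only the conditions compared and 1933 and 3583 with the thresholds of the methods. For FZD8_CRD with Wnt3a the count of 4 became 0 with spike-in scaling and 1 with the thresholds of the methods, and 2 to 5 with arrays left out. The differences between Wnt3a responses stayed at 0 for siCTNNB1 and reached 0 to 5 for FZD8_CRD with arrays left out. MYCN was not tested under the filter on all 24 arrays.

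Calls were also lost when a whole slide was left out. Every call of MYCN but its fall after siCTNNB1 with Wnt3a was lost without slide 1, and some of them without slide 2 or 3. Without slide 1, and also without slide 2, the calls of MYC and CDKN1B after siCTNNB1 with Wnt3a, CDKN1B after siCTNNB1 without Wnt3a, CCND1 and CDKN1B with FZD8_CRD alone, CCND2 with FZD8_CRD and Wnt3a and CCND3 with the control siRNA and Wnt3a were lost. Without slide 1 those of CCND3 and CDKN2A with the control siRNA alone, CDKN1A with the control siRNA and Wnt3a and CDKN2A with FZD8_CRD alone were lost, without slide 2 that of CCND2 after siCTNNB1 with Wnt3a, and without slide 3 that of MYCL with FZD8_CRD alone.

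With the slide as a block the count became 2 for Wnt3a in untransfected cells (adding CCND3), 4 for Wnt3a with FZD8_CRD (adding CCND3, CDKN1B and CDKN2B) and 1 for the difference between Wnt3a responses with FZD8_CRD (CCND3). It became 5 for siCTNNB1 without Wnt3a (adding MYC), 7 with Wnt3a (adding MYCL and CDKN2B) and 6 for FZD8_CRD with Wnt3a (adding MYCL and CDKN2B). The block raised the calls over all genes in each of these comparisons. They were 1502 higher and 1321 lower for Wnt3a in untransfected cells (738 and 643 without the block). For Wnt3a with FZD8_CRD they were 1691 and 1607 (1074 and 970), and for the difference 51 and 98 (5 and 13). For siCTNNB1 they were 1661 and 2434 (1085 and 1519) without Wnt3a and 1501 and 2345 (1006 and 1602) with it. For FZD8_CRD with Wnt3a they were 5450 and 6500 (4493 and 4669). After condition means were removed, arrays on 1 slide had a mean r of 0.384 and arrays on different slides of -0.191, and 82 of 84 pairs on 1 slide were above 0.1.

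Spike-in scaling turned CCND3 (-0.17) and AXIN2 (-0.0266) for Wnt3a in untransfected cells, and CCND1 (-0.0501) and CDKN1B (-0.0628) for FZD8_CRD alone. The difference between Wnt3a responses of MYCN with FZD8_CRD turned to 0.24 without replicate 2 and 0.16 without the Wnt3a array of replicate 2, and was -0.95 without replicate 3. A filter that asks every spot of a probe to be well above background, added after the data were seen, changed no call of the 10 genes.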

Other observations

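Mesenchymal markers moved with Wnt3a in the presence of FZD8_CRD, where 6 of 7 genes rose (VIM, ACTA2, COL1A1, COL4A1, TAGLN and FN1) and 0 fell, with a list median of 0.90 against 0.02 for all genes. In that comparison 8.29% of all genes were called. Without FZD8_CRD Wnt3a raised 3 of them (ACTA2, COL1A1 and FN1), beside 5.6% of all genes, and after siCTRL it raised 2 (COL1A1 and FN1), beside 2.11%. After siCTNNB1 limma called 0, beside 0.0406%. With siCTNNB1 and Wnt3a against siCTRL and Wnt3a 1 rose (CDH2) and 4 fell (VIM, COL1A1, TAGLN and FN1), with a median of -0.84, beside 10.6% of all genes. With both agents against Wnt3a alone 5 rose (VIM, ACTA2, COL4A1, CDH2 and TAGLN) and 1 fell (FN1), with a median of 0.84, beside 37.2%. The summed level of the list, in multiples of the 75th percentile, was 30.5, 31.2 and 41.8 with FZD8_CRD and 56.5, 56.7 and 48.7 with both agents, so the array of replicate 3 again lay between its companions and the arrays with both agents.

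With 3 arrays per condition and slides that share a replicate number, many calls near the threshold were lost when 1 array was left out. The levels are of RNA in bulk samples, and neither protein nor the state of the cell cycle was measured. Whether the FZD8_CRD array of replicate 3 differs in treatment, in handling or in its cells cannot be told apart with these data.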
